A study of Brassica napus with 12 samples.

Results

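The HSP17.6II copies are 5 genes of oilseed rape (*Brassica napus*) that the gene tables of the study pair with the Arabidopsis locus AT5G12020, which encodes the small heat-shock protein HSP17.6II. They are *BnaA03g03740D* and *BnaA10g20610D* on chromosomes A03 and A10 of the A subgenome, and *BnaC02g04180D*, *BnaC03g05240D* and *BnaC09g44630D* on chromosomes C02, C03 and C09 of the C subgenome. They were taken by these identifiers. They are 5 of the 101038 genes with a read count. The tables that give the name list genes which the study found to respond to temperature in these libraries. A response of the copies in Drakkar is therefore not independent evidence, and a further copy of the locus without a response would carry no name in those tables.

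RNA was sequenced from root tips of the spring varieties Drakkar and Duplo after 7 days at 29 °C (warm) or 21 °C (control). The 4 groups were Drakkar at 29 °C, Drakkar at 21 °C, Duplo at 29 °C and Duplo at 21 °C, each with 3 biological replicates, which gave 12 libraries. All groups were seedlings germinated on agar, moved to paper pouches with nutrient solution and kept at a constant temperature, and each replicate pooled the tips of several seedlings. The sources differ in the length of tip that was cut, and none of the 13 root-tip, root-hair and leaf marker genes looked for was paired with a gene identifier, so the tissue was not checked. In bulk tissue, fewer cells of a type and less RNA per cell cannot be told apart. Between 26554987 and 39934384 reads were counted on genes per library.

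Small heat-shock proteins bind other proteins that begin to unfold and hold them in a soluble state, without using ATP, until the HSP70 and HSP101 chaperones refold them. HSP17.6II belongs to class II, which works in the cytosol, beside the cytosolic class I and forms that are sent to mitochondria, plastids or the endoplasmic reticulum. In Arabidopsis these genes are almost silent in unstressed vegetative tissue and are switched on by heat-shock factors when the temperature rises.

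The study designed 1 quantitative PCR primer pair for *BnHSP17.6II*, assigned to *BnaC03g05240D*. The pair is shown because it names the copy that was followed outside the sequencing, on chromosome C03. No base is in capitals. Whether the pair also amplifies the other copies was not tested, since no sequence of the copies was used here.
BnHSP17.6II forward: aatcctcgaagacatgctaga
BnHSP17.6II reverse: ccaggcatgtccaccacgaa

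Reads on the copies were abundant in 3 of the 12 libraries and scarce in the other 9. Summed over the 5 copies, 427, 7.07 and 563 CPM (read counts scaled to library size, on a common scale for all 12 libraries) were measured in Drakkar replicates 1, 2 and 3 at 29 °C, against 2.31, 1.41 and 1.58 CPM in Drakkar at 21 °C. The sums were 2.51, 10.4 and 14.9 CPM in Duplo at 29 °C, against 0.155, 167 and 0.136 CPM in Duplo at 21 °C. Drakkar 29 °C replicate 2 thus lay far below the other replicates of its group, and Duplo 21 °C replicate 2 far above its own. Fits by edgeR (the main test) and share differences of the copies that rest on either library are given with and without it, or without both, where enough reads were left. Calls by DESeq2 (the alternative tool) between the varieties and for the difference of their responses are given with all libraries only.

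**Figure D1:**
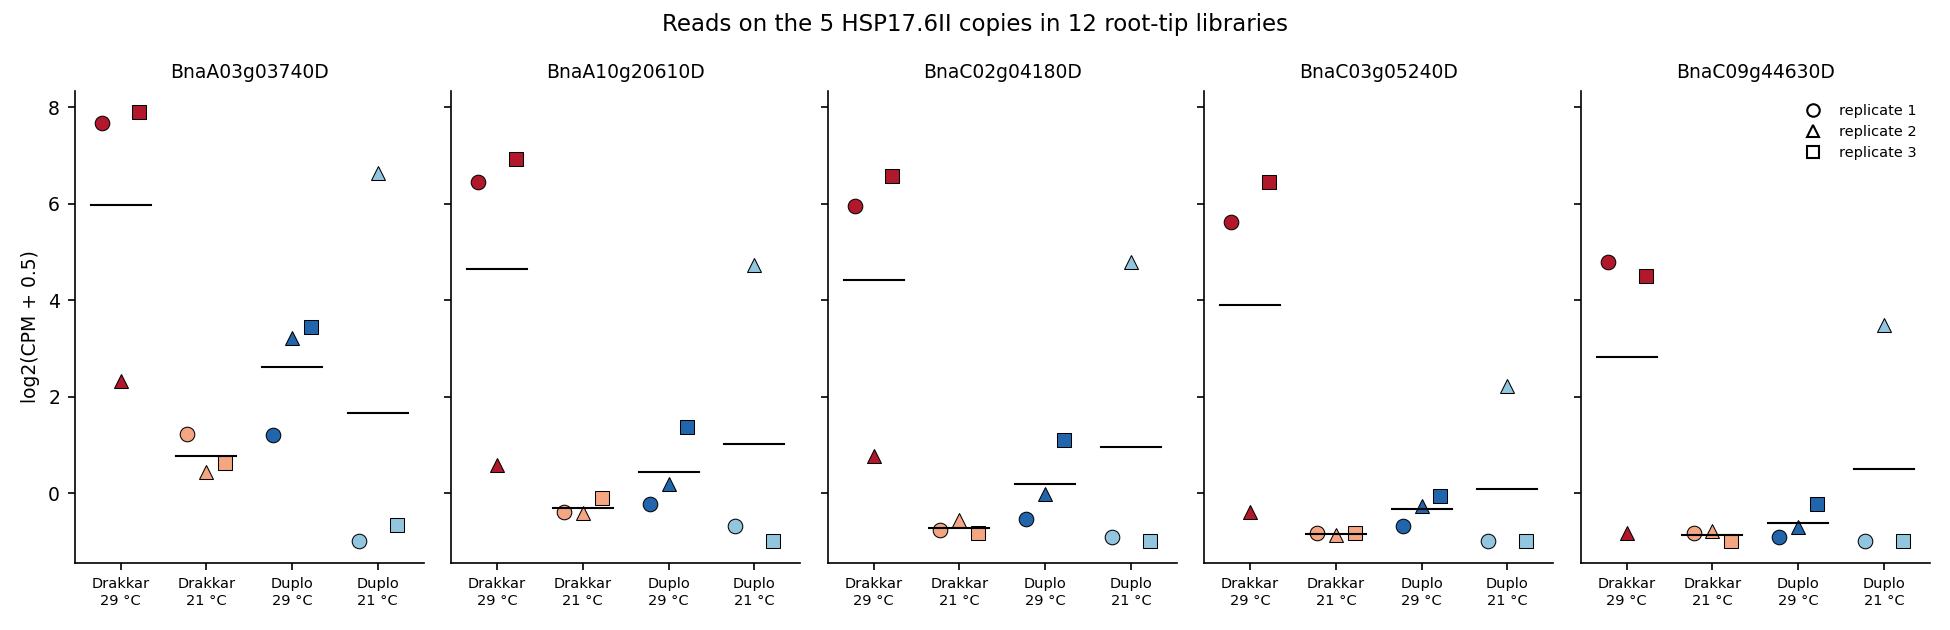
Level of each copy as log2(CPM + 0.5) in Drakkar at 29 °C and 21 °C and in Duplo at 29 °C and 21 °C, with 1 symbol per replicate and a line at the group mean of these log2 values. In each panel, replicate 2 of Drakkar at 29 °C is the lowest of its group and replicate 2 of Duplo at 21 °C the highest of its group.

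*BnaA03g03740D*, the A03 copy, held the most reads of the 5 in 11 of the 12 libraries. It had 6560, 136 and 6805 reads in Drakkar at 29 °C, against 62, 34 and 34 in Drakkar at 21 °C. These are 203, 4.54 and 239 CPM at 29 °C, against 1.84, 0.858 and 1.04 CPM at 21 °C, and the temperatures did not overlap. In Duplo the copy had 57, 235 and 296 reads at 29 °C, against 0, 2872 and 4 reads at 21 °C. The Duplo libraries at 29 °C (1.81, 8.78 and 10.4 CPM) therefore lay above replicates 1 and 3 at 21 °C (0 and 0.136 CPM) and below replicate 2 (98.6 CPM).

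*BnaA10g20610D*, the A10 copy, had 2806, 30 and 3447 reads in Drakkar at 29 °C, against 9, 10 and 14 at 21 °C. Its levels were 86.8, 1.00 and 121 CPM at 29 °C, against 0.267, 0.252 and 0.426 CPM at 21 °C, again without overlap. In Duplo it had 11, 17 and 59 reads at 29 °C, against 4, 757 and 0 at 21 °C. Replicate 2 at 21 °C, with 26.0 CPM, was the only Duplo library above 2.07 CPM.

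*BnaC02g04180D*, the C02 copy, had 1971, 36 and 2705 reads in Drakkar at 29 °C, against 3, 7 and 2 at 21 °C. The values of 60.95, 1.20 and 94.8 CPM at 29 °C did not overlap with the 0.0890, 0.177 and 0.0609 CPM at 21 °C. In Duplo it had 6, 13 and 47 reads at 29 °C, against 1, 789 and 0 at 21 °C. Replicate 2 at 21 °C was again on top of the Duplo libraries, and the 3 libraries at 29 °C lay above the other 2 at 21 °C.

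*BnaC03g05240D*, the C03 copy of the primer pair, had 1576, 8 and 2477 reads in Drakkar at 29 °C, against 2 in each of the 3 libraries at 21 °C. All 3 control libraries were thus at or under the floor of 3 counts that was taken as background. In Duplo it had 4, 9 and 13 reads at 29 °C, against 0, 122 and 0 at 21 °C. Even in Duplo 21 °C replicate 2 its level was 4.19 CPM, against 48.7 and 86.8 CPM in Drakkar replicates 1 and 3 at 29 °C.

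*BnaC09g44630D*, the C09 copy, had the fewest reads in Drakkar at 29 °C, with 883, 2 and 635, against 2, 3 and 0 at 21 °C. Its replicate 2 at 29 °C (0.0667 CPM) overlapped with the 21 °C libraries (0 to 0.0757 CPM), which makes it the only copy whose temperatures overlapped in Drakkar. In Duplo it had 1, 3 and 10 reads at 29 °C, against 0, 313 and 0 at 21 °C. Copies of similar sequence can exchange reads, and how reads that align to several genes were counted is not given in the sources used here, so the division of reads between these copies is uncertain. Levels of different copies were not ranked per length, since no gene lengths of this assembly were used.

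The first question was whether warmth changed the copies in Drakkar. The A03, A10 and C02 copies rose at 29 °C, and the C03 and C09 copies were removed by the filter on low counts, so that 3 of 5 were tested. Of all 52709 genes tested, 3.24% were called in either direction and 2.48% were called higher at 29 °C, while 17.9% did not overlap and lay higher at 29 °C. Called means an adjusted p under 0.05 and a log2 fold change beyond 1. The fitted log2 fold changes were 6.89 ± 1.35 for *BnaA03g03740D* (adjusted p = 0.0347), 7.77 ± 1.61 for *BnaA10g20610D* (adjusted p = 0.0395) and 8.80 ± 1.68 for *BnaC02g04180D* (adjusted p = 0.0333), with p from edgeR's quasi-likelihood test. The value after each ± is a standard error worked back from that test, as the absolute log2 fold change over the square root of its F statistic. By fold change they ranked 23, 12 and 4 among the tested genes. In the controls the C02 copy held only 3, 7 and 2 reads, and it passed the filter through the libraries at 29 °C. Its call, rank and fold therefore add no support. The A10 copy had few control reads too, at 9, 10 and 14. DESeq2 called the same 3 copies (adjusted p = 1.0e-07 to 5.4e-06), where it called 4.72% of all genes.

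As ratios of group means in CPM, the A03 copy was 119-fold, the A10 copy 221-fold and the C02 copy 481-fold higher in warm than in control Drakkar tips. The C03 copy was at least 530-fold and the C09 copy at least 194-fold higher, counted against a floor of 3 reads per library at 21 °C. The C02 ratio rests on 2 to 7 reads per control library and is not a firm fold. Drakkar 29 °C replicate 2 taken alone gave ratios of 3.65 (A03), 3.18 (A10) and 11.03 (C02), and of at least 3.13 for the C03 copy, while its C09 copy was at the floor in both. Without replicate 2 the ratios were 177 (A03), 329 (A10) and 715 (C02), and at least 794 (C03) and 290 (C09). The size of the response thus rested on replicates 1 and 3. For 4 of the 5 copies the libraries of the 2 temperatures did not overlap, and 3 of these 4 had passed the filter.

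Without Drakkar 29 °C replicate 2, all 5 copies were called, where 5.89% of the tested genes were called. The C03 and C09 copies, with 0 to 3 reads in each control library, passed the filter there only through the 2 high libraries at 29 °C, so their calls add no support. The log2 fold changes of the other 3 were then 7.48 ± 0.303 (*BnaA03g03740D*), 8.36 ± 0.253 (*BnaA10g20610D*) and 9.39 ± 0.345 (*BnaC02g04180D*), with adjusted p-values of 2.1e-04 to 4.7e-04 (edgeR). The C02 call again stands against 2 to 7 reads per control library and adds no support. DESeq2 called all 5 as well, and 5.89% of all genes. Without any other of the 6 Drakkar libraries, 0 copies were called by edgeR, and 11 to 336 of all genes were, while the log2 fold changes of the copies stayed at 6.39 or more. In 1 fit of all 12 libraries, the C03 copy alone was called (edgeR adjusted p = 0.0404), where 2.03% of all genes were. Without a filter on low counts all 5 copies were called, and 2.62% of all genes. These calls of the C03 copy, and of the C09 copy without the filter, stand against the same control libraries with 0 to 3 reads and add no support.

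In Duplo the comparison of temperatures turned on 1 library. With all 6 libraries, the fitted log2 fold changes of the 4 copies that passed the filter were negative, at -2.23 ± 2.09 (*BnaA03g03740D*), -3.08 ± 1.997 (*BnaA10g20610D*), -3.53 ± 2.14 (*BnaC02g04180D*) and -2.17 ± 1.77 (*BnaC03g05240D*). None was called by edgeR (adjusted p between 0.390 and 0.571), none had an unadjusted p under 0.05, and DESeq2 returned no p-value for any of them. Of all 51673 genes tested in Duplo, edgeR called 1, or 0.00194%, and DESeq2 called 929. By edgeR, 10272 of them had an unadjusted p under 0.05.

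Without Duplo 21 °C replicate 2 the sign turned. The log2 fold changes were then 6.68 ± 1.31 for the A03 copy and 3.94 ± 1.29 for the A10 copy, and those of the C02 and C03 copies were positive against controls with 0 or 1 reads. The edgeR adjusted p-values of 0.186 to 0.262 called none of these 4 copies, and unadjusted p-values were under 0.05 for all 4. Unadjusted edgeR p-values were under 0.05 for 8514 of all 52915 genes there. In that fit 0% of all genes were called by edgeR, whereas DESeq2 called 2.02% of the genes, among them *BnaA03g03740D* (adjusted p = 7.6e-07) and not the other 3 copies (adjusted p = 0.0545 to 0.0623). The 4 copies passed the filter there only through the libraries at 29 °C, since replicates 1 and 3 at 21 °C held 0 to 4 reads on each. These p-values and the DESeq2 call therefore add no support. The DESeq2 fit without that library was chosen after seeing the data. For the 4 copies that passed the filter, each Duplo library at 29 °C lay above both replicates 1 and 3 at 21 °C, which held for 18.7% of the genes tested. So it did for the C09 copy, which was not tested, with 1, 3 and 10 reads against 0 and 0. In ratios of means, that was 103-fold for the A03 copy and 16.4-fold for the A10 copy, and at least 7.97-fold, 3.15-fold and 1.70-fold for the C02, C03 and C09 copies. The ratios of the A03 and A10 copies rest on 1 library with 4 reads and 1 with 0 reads at 21 °C. Their means there, 0.0679 and 0.0620 CPM, lay under the level of 3 reads, so they are not measured folds.

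**Figure D2:**
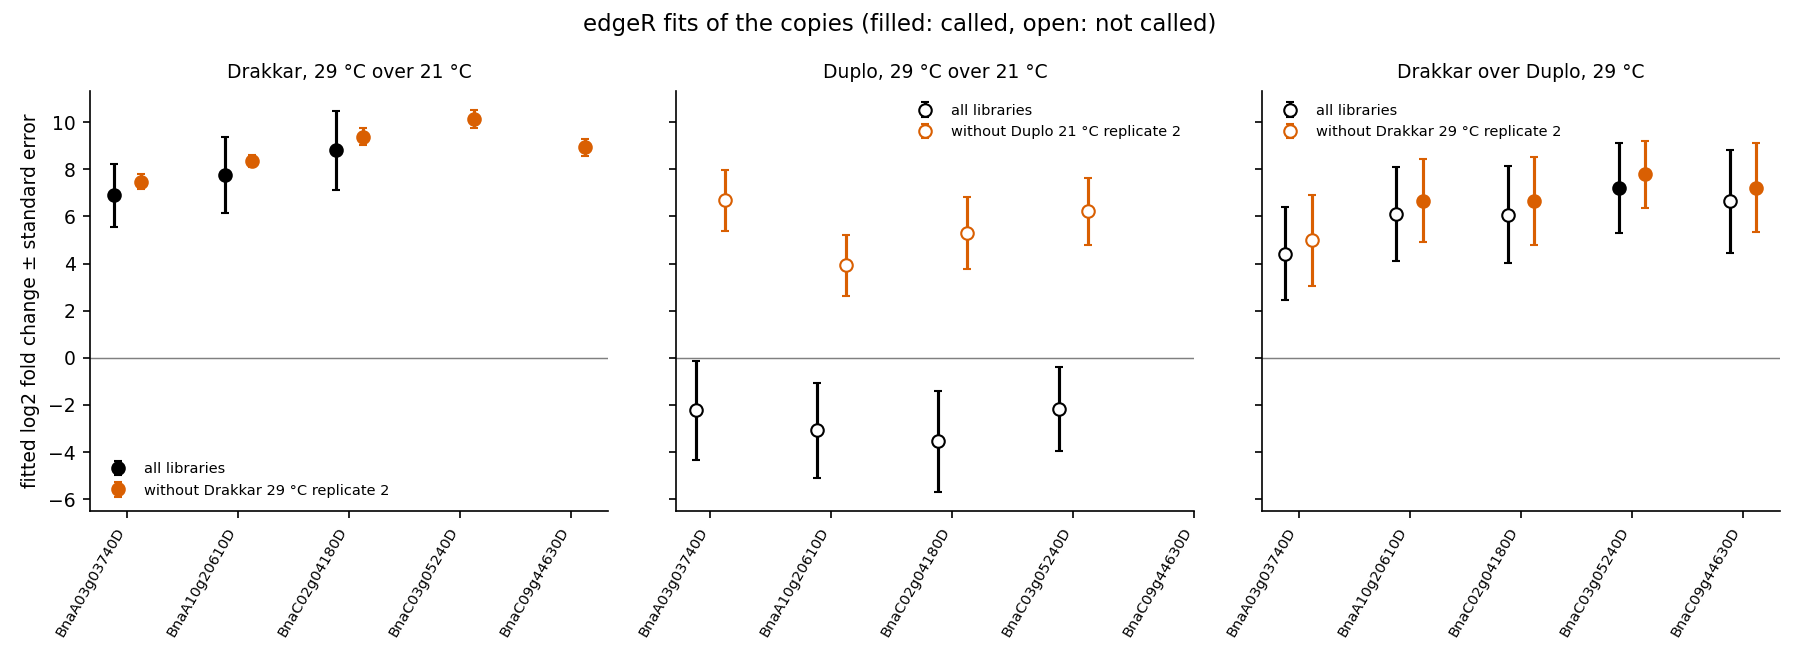
Fitted log2 fold change ± standard error (worked back from the test statistic) of each copy (edgeR) with all libraries (black) and with 1 library left out (orange), for 29 °C over 21 °C in Drakkar, 29 °C over 21 °C in Duplo and Drakkar over Duplo at 29 °C. Filled points were called, open points were not, and a missing point means that the copy did not pass the filter. Leaving out Duplo 21 °C replicate 2 moves the copies across 0 in Duplo. Orange points of the C03 and C09 copies in Drakkar stand against controls with 0 to 3 reads per library and show no measured fold. All orange points in Duplo stand against controls with 0 to 4 reads per library and show no measured fold either. Points of the C02 copy in Drakkar stand against controls with 2 to 7 reads. At 29 °C, points of the C03 and C09 copies stand against Duplo libraries with 1 to 13 reads.

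The second question was whether the varieties differed in their response. The fitted difference of the log2 responses, Drakkar minus Duplo, was 9.14 ± 2.88 for *BnaA03g03740D*, 10.87 ± 2.875 for *BnaA10g20610D* and 12.36 ± 3.13 for *BnaC02g04180D*. No estimate is given for the C03 and C09 copies, which held 0 to 3 reads in every Drakkar library at 21 °C. The difference was called for none of the 5 copies by edgeR (adjusted p = 0.499 to 0.556), and 0% of all 55227 genes were called, although all 5 copies had unadjusted p-values under 0.05. An unadjusted p under 0.05 was also found by edgeR for 3891 of all genes. DESeq2 called the A10, C02 and C03 copies (adjusted p = 0.0281, 0.0136 and 0.0247), and 0.253% of all genes. The call of the C03 copy stands against Drakkar controls with 2 reads in each library and adds no support. The call of the C02 copy stands against 2 to 7 reads there and adds none either. Without Drakkar 29 °C replicate 2 and Duplo 21 °C replicate 2, the difference was 0.81 ± 2.11 for the A03 copy and 4.47 ± 2.07 for the A10 copy, neither of them called (edgeR adjusted p = 0.959 and 0.578), where 0.21% of all genes were. For the C copies no such estimate is given, because the 2 Duplo libraries left at 21 °C held 0 or 1 reads on each of them. On the A03 and on the A10 copy, 1 of these 2 libraries held 4 reads and the other 0, so their differences are fitted values near the floor.

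At 29 °C itself, the C03 copy was higher in Drakkar by the test, and the fitted values of the other 4 had the same sign. The log2 fold changes of Drakkar over Duplo were 4.41 ± 1.98 (*BnaA03g03740D*), 6.09 ± 2.003 (*BnaA10g20610D*), 6.08 ± 2.04 (*BnaC02g04180D*), 7.21 ± 1.90 (*BnaC03g05240D*) and 6.64 ± 2.20 (*BnaC09g44630D*). Of these, the C03 copy was called (edgeR adjusted p = 0.0188), and the others had adjusted p-values of 0.0533 to 0.156. Of all genes tested, 12.5% were called between the varieties at 29 °C, 6.67% higher and 5.85% lower in Drakkar. DESeq2 called all copies but A03, and 13% of all genes. In Duplo at 29 °C the C03 copy held 4, 9 and 13 reads and the C09 copy 1, 3 and 10. Calls and folds of these 2 copies, here and with libraries left out, thus stand against values near the floor. In every copy the Drakkar and Duplo libraries overlapped, because Drakkar replicate 2 lay within the range of the Duplo libraries, for instance at 4.54 CPM for the A03 copy against 1.81 to 10.4 CPM in Duplo. Of all genes, 16% did not overlap and lay higher in Drakkar.

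The call counts depended on single libraries. Without Drakkar 29 °C replicate 2, 4 of the 5 copies were called (12.7% of all genes), as they were without Duplo 21 °C replicate 1 or 3, and without Duplo 21 °C replicate 2, which is not part of this contrast but shares the estimate of the spread, all 5 were (12.5% of all genes). Without both, all 5 were called with adjusted p-values of 9.8e-06 to 5.9e-04 (edgeR) and log2 fold changes of 4.98 to 7.79, where 12.7% of all genes were called. Without Drakkar 29 °C replicate 3, Duplo 29 °C replicate 1 or Duplo 29 °C replicate 2, 0 were called and 6397, 6499 and 6656 of all genes were. The log2 fold change of *BnaC03g05240D* was then 6.32, 6.81 and 7.28.

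At 21 °C no copy was called by edgeR, and the sign of the fitted values turned on Duplo replicate 2. The fitted log2 fold changes of Drakkar over Duplo lay between -6.28 ± 2.41 (*BnaC02g04180D*) and -4.51 ± 2.45 (*BnaC03g05240D*), none was called by edgeR (adjusted p = 0.107 to 0.283), 4 of the 5 had an unadjusted p under 0.05, and DESeq2 called the C02 copy (adjusted p = 0.0129). Of all genes, 11.7% were called by edgeR and 12.4% by DESeq2 at 21 °C. An unadjusted p under 0.05 was found by edgeR for 15133 of all 55227 genes. Without Duplo 21 °C replicate 2 the values were 4.17 ± 2.29 for the A03 copy and 2.21 ± 2.79 for the A10 copy, and no copy was called (edgeR adjusted p = 0.321 to 0.834), where 10.8% of all genes were. No fold is given there for the C copies, which had 0 or 1 reads in Duplo replicates 1 and 3. The A03 and A10 copies each had 4 reads in 1 of these replicates and 0 in the other, so their values are fitted near the floor. In reads summed over the copies, Drakkar had 78, 56 and 52 at 21 °C, against 5 and 4 in Duplo replicates 1 and 3.

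The division of reads among the copies differed between libraries. In Drakkar at 29 °C, *BnaA03g03740D* took 47.6% (95% Wilson interval 46.7 to 48.4) and 42.4% (41.6 to 43.1) of the reads on the 5 copies in replicates 1 and 3, and 64.2% (57.5 to 70.3) in replicate 2. In Drakkar at 21 °C it took 79.5% (69.3 to 87.0), 60.7% (47.6 to 72.4) and 65.4% (51.8 to 76.9). The A03 share was therefore lowest in the 2 libraries with the most reads, and in replicate 2 it lay within the range at 21 °C. These intervals cover counting error only. The C03 copy had 11.4% (10.9 to 11.97) and 15.4% (14.9 to 16.0) in Drakkar replicates 1 and 3 at 29 °C and 3.77% (1.92 to 7.27) in replicate 2, against 2.56% to 3.85% in the 3 Drakkar libraries at 21 °C.

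Between the varieties at 29 °C, the A03 copy had a mean share of 51.4% ± 11.4 in Drakkar and 75.6% ± 8.14 in Duplo (SD, n = 3 each), without overlap. The A10 copy had 18.7% ± 3.93 in Drakkar and 11.3% ± 4.48 in Duplo, and the C02 copy 16.0% ± 1.52 in Drakkar and 7.78% ± 3.19 in Duplo, also without overlap. In an exact two-sided permutation test, each of these 3 differences had p = 0.1, the smallest that 3 against 3 libraries can give, so that none of the 5 shares compared could reach 0.05. The C03 share of 10.2% ± 5.92 in Drakkar against 3.79% ± 1.11 in Duplo had an exact permutation p of 0.2, and the C09 share of 3.77% ± 2.73 in Drakkar against 1.57% ± 0.687 in Duplo one of 0.4. Without Drakkar 29 °C replicate 2, the differences, Drakkar minus Duplo, were -30.6 (A03), 9.58 (A10), 7.78 (C02), 9.63 (C03) and 3.61 (C09) percentage points, against -24.2, 7.33, 8.25, 6.41 and 2.20 with it.

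Duplo 21 °C replicate 2 allows a look at the division in Duplo at a high level. Its 4853 reads were divided into 59.2% for the A03, 15.6% for the A10, 16.3% for the C02, 2.51% (95% Wilson interval 2.11 to 2.99) for the C03 and 6.45% for the C09 copy. The C02 and C09 shares lay within or near those of Drakkar replicates 1 and 3 at 29 °C (14.3% and 16.8% for C02, 6.40% and 3.95% for C09). The C03 share of 2.51% lay below 11.4% and 15.4%, outside their counting intervals, and the A03 share of 59.2% lay above 47.6% and 42.4%. This is a comparison of 1 library with 2, and it has no replicate check.

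**Figure D3:**
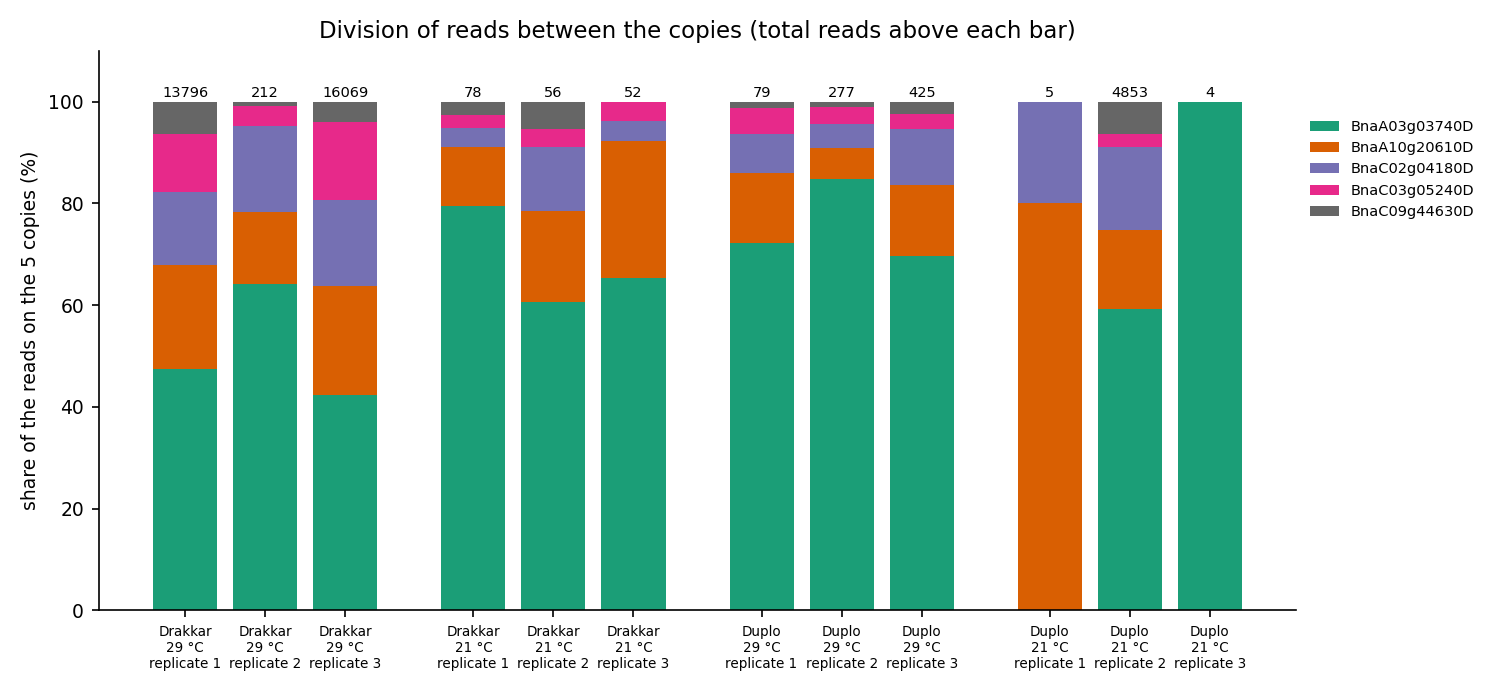
Share of each copy in the reads on the 5 copies, in percent, for each library of Drakkar at 29 °C and 21 °C and of Duplo at 29 °C and 21 °C, with the total reads above each bar. In Duplo 21 °C replicate 2 (4853 reads) the C03 copy has a share of 2.51%, against 11.4% and 15.4% in Drakkar replicates 1 and 3 at 29 °C, and the 2 bars with 5 and 4 reads carry almost no information.

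The genes next to the A03 and C03 copies also differed between the varieties, at both temperatures. Of the 50 identifiers within 5 places of a copy, 34 were tested between the varieties, and at 29 °C 6 were called higher and 4 lower in Drakkar, beside 6.67% and 5.85% of all genes. The 5 neighbours of the C03 copy among them were all higher in Drakkar. *BnaC03g05210D*, which is 3 places away, had 373, 298 and 346 reads in Drakkar and 0 in each of the 3 Duplo libraries at 29 °C. *BnaC03g05250D*, the next identifier, had 1111, 1111 and 983 reads in Drakkar and 133, 111 and 108 in Duplo at 29 °C (log2 fold change 3.12 ± 0.193, edgeR adjusted p = 7.9e-07). Called too were *BnaC03g05220D* (3.96), *BnaC03g05230D* (6.86) and *BnaC03g05260D* (3.95), each higher in Drakkar on the log2 scale.

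Around the A03 copy the sign was the opposite. *BnaA03g03720D* (-1.13), *BnaA03g03730D* (-5.13), *BnaA03g03750D* (-1.39) and *BnaA03g03760D* (-1.65) were called lower in Drakkar than in Duplo at 29 °C on the log2 scale by edgeR. *BnaA03g03730D* had 15, 24 and 9 reads in Drakkar, against 695, 514 and 408 in Duplo. The tenth called neighbour, *BnaC09g44590D* near the C09 copy, was higher in Drakkar (1.496 ± 0.197). At 21 °C, where 6% of all genes were called higher and 5.75% lower in Drakkar, all 5 neighbours of the C03 copy and 2 of the A03 copy, *BnaA03g03730D* and *BnaA03g03750D*, were called with the same signs.

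A wider window of 25 identifiers on either side, chosen after these values were seen, held the same pattern. Among genes with a mean of 1 CPM or more, all 23 around the C03 copy were higher in Drakkar at both temperatures, with a median log2 ratio of mean levels of 2.83 at 29 °C and 2.29 at 21 °C, and 20 of the 23 lay above 1 at each temperature, as did 5.6% (29 °C) and 5.24% (21 °C) of all 45455 such genes. Around the A03 copy, 27 of 29 genes were lower in Drakkar, with medians of -0.92 at 29 °C and -0.93 at 21 °C, and 14 and 12 of them lay below -1 at 29 °C and 21 °C, beside 5.1% and 5.04% of all such genes. The medians around the A10, C02 and C09 copies lay between -0.15 and 0.12, and that of all genes was -0.025 at 29 °C. Summed over the 23 genes around the C03 copy, Drakkar had 399 to 457 CPM at 29 °C and Duplo 89.9 to 95.4 CPM, and at 21 °C Drakkar had 451 to 486 CPM and Duplo 111 to 161 CPM.

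These neighbours did not follow the copies across the libraries. The 23-gene sum was 457 CPM in Drakkar 29 °C replicate 2, where the copies were low, and 111 CPM in Duplo 21 °C replicate 2, where they were high. At 29 °C the fitted log2 values of the copies, Drakkar against Duplo, were positive in each neighbourhood, with only the C03 copy called: 4.41 for the A03 copy, whose neighbours were mostly lower, 7.21 for the C03 copy, whose neighbours were higher, and 6.08 to 6.64 for the other 3, with neighbourhood medians near 0. The part of the neighbourhoods in the copies' levels and shares was not tested.

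**Figure D4:**
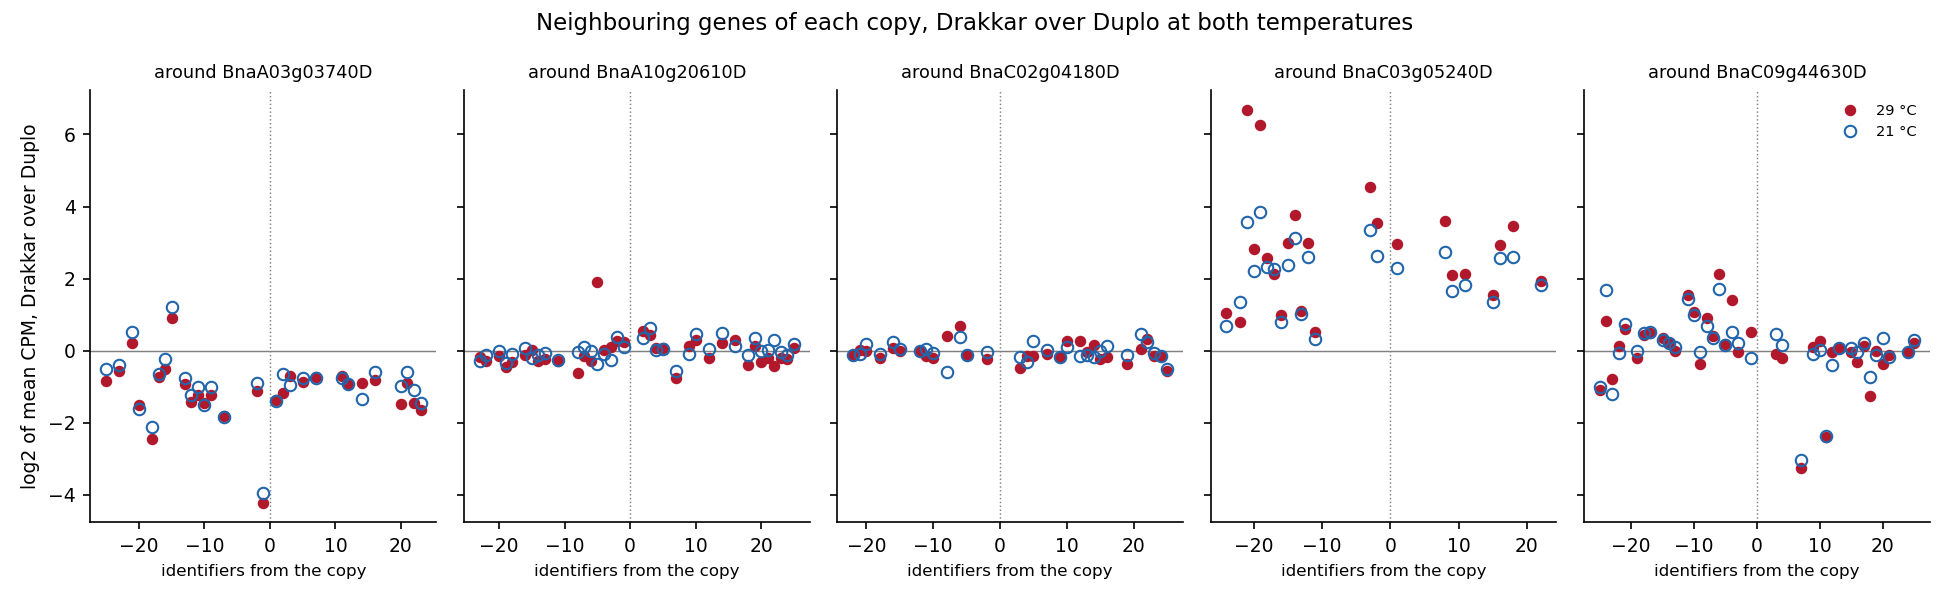
log2 ratio of mean levels (CPM + 0.5), Drakkar over Duplo, of genes with a mean of 1 CPM or more among the 25 identifiers before and after each copy, at 29 °C (filled) and 21 °C (open). The genes around the C03 copy lie above 0 with medians of 2.83 and 2.29, and those around the A03 copy mostly below 0 with medians of -0.92 and -0.93.

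Of the 50 nearest neighbours, 2 of the 34 tested within Drakkar were called between the temperatures, both next to the A10 copy and both higher at 29 °C, beside 3.24% of all genes. *BnaA10g20560D*, which the study pairs with AT5G12110, had 46.6, 11.6 and 48.2 CPM at 29 °C, against 3.80, 1.87 and 3.29 CPM at 21 °C (log2 fold change 3.56 ± 0.555, edgeR adjusted p = 0.0230). Its replicate 2 was again the lowest at 29 °C, and in Duplo its highest value at 21 °C was again replicate 2, with 8.68 CPM against 2.17 and 1.22 CPM in replicates 1 and 3. *BnaA10g20600D*, directly beside the copy and paired with AT5G12040, had a log2 fold change of 1.03 ± 0.177 (edgeR adjusted p = 0.0273) and no such gap, with 3.40, 3.37 and 3.15 CPM at 29 °C, against 1.34, 1.77 and 1.74 CPM at 21 °C.

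The copies went together over the 12 libraries. Between pairs of copies, Pearson's r of log2(CPM + 0.5) lay between 0.911 and 0.996, a description over libraries that share varieties and temperatures. Outside the copies, the gene most like their mean was *BnaA04g28570D*, a copy of the class I cytosolic small heat-shock protein HSP17.6B (r = 0.996, Spearman's rho = 1.00, n = 12 libraries). It had 93.8, 5.01 and 134 CPM in Drakkar at 29 °C, against 2.97, 1.82 and 2.95 CPM at 21 °C, and 3.08, 3.33 and 6.26 CPM in Duplo at 29 °C, against 1.61, 40.1 and 1.43 CPM at 21 °C. Next were *BnaA05g26970D*, which has no name in the study's tables (r = 0.982), *BnaA01g16730D*, a copy of *BOB2* (0.978), *BnaAnng17140D*, a copy of the peroxisomal small heat-shock protein HSP15.7 (0.974), and *BnaC03g28860D*, a copy of HSP22.0 of the endoplasmic reticulum (0.973).

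*BnaC03g28860D* had 688, 1 and 1445 reads in Drakkar at 29 °C, against 0 in all 3 libraries at 21 °C, and 0, 0 and 7 reads in Duplo at 29 °C, against 0, 112 and 0 at 21 °C. *BnaA05g26970D* had a smaller range, with 51.1, 18.4 and 52.4 CPM in Drakkar at 29 °C, against 18.5, 20.9 and 21.5 CPM at 21 °C. In Duplo it had 21.5, 21.6 and 24.4 CPM at 29 °C, against 17.61, 39.3 and 18.2 CPM at 21 °C. These genes were picked for their likeness over the same 12 libraries, so that a like order of the libraries is part of the choice.

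Other genes of the heat response were taken by Arabidopsis locus from the same tables, 41 in all, and their Drakkar response is likewise not independent evidence. No gene there was paired with AT5G12030, the Arabidopsis locus of the other class II small heat-shock protein. Of the 9 cytosolic class I genes, 7 were tested in Drakkar and 3 were called, all higher at 29 °C, with a median log2 fold change of 4.27, beside 3.24% of all genes called and a median over all genes of 0.0063. DESeq2 called all 7 (4.72% of all genes), and edgeR without Drakkar 29 °C replicate 2 called all 9 (5.89% of all genes). Those 9 include genes that passed the filter only without that low library, and their calls add no support. The HSP17.6B copy *BnaC04g54510D* had 385, 36.6 and 396 CPM at 29 °C, against 33.7, 27.4 and 36.2 CPM at 21 °C (3.06 ± 0.757, not called, edgeR adjusted p = 0.0561). The HSP17.6B copy *BnaC04g40580D* was called, with 273, 25.4 and 380 CPM at 29 °C, against 12.4, 8.51 and 13.9 CPM at 21 °C (4.27 ± 0.869, edgeR adjusted p = 0.0378). Replicate 2 at 29 °C was above all 3 control libraries in both, as in 4 of the 5 HSP17.6II copies.

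Of the 7 small heat-shock protein genes of organelles, 6 were tested and 4 called, all higher at 29 °C in Drakkar, beside 3.24% of all genes called. Their median log2 fold change was 5.02. DESeq2 called all 6 (4.72% of all genes), and edgeR without Drakkar 29 °C replicate 2 called 6 of 7 (5.89% of all genes). Any call there of a gene not tested with all libraries adds no support. The mitochondrial HSP23.6 copies had the highest mean CPM, with 249, 33.9 and 286 CPM at 29 °C, against 2.14, 1.41 and 2.22 CPM at 21 °C for *BnaA01g14560D* (6.61 ± 0.831, edgeR adjusted p = 0.0153). *BnaC01g17140D* had 135, 10.6 and 181 CPM at 29 °C, against 0.0890, 0.303 and 0.183 CPM at 21 °C (9.07 ± 1.24, edgeR adjusted p = 0.0182). In Duplo *BnaC01g17140D* had 9.25, 14.7 and 23.9 CPM at 29 °C, against 0.124, 31.4 and 0.136 CPM at 21 °C. The gap between Duplo 21 °C replicate 2 and the 29 °C libraries was thus smaller in this gene than in the HSP17.6II copies, where the summed level of replicate 2 was 18.0 times the mean at 29 °C.

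Chaperones and related heat-response genes were called too. Of the 15 disaggregase and folding chaperone genes (copies of *HSP101*, *HSP70*, *HSP70B*, *HSP81-2*, *ROF2* and *HSA32*), all were tested in Drakkar. Of these, 12 were called, all higher at 29 °C, beside 3.24% of all genes called, with a median log2 fold change of 4.51. DESeq2 called all 15 (4.72% of all genes), as did edgeR without Drakkar 29 °C replicate 2 (5.89% of all genes). The 2 with the most reads were copies of the cytosolic HSP90 gene *HSP81-2*. *BnaC02g12750D* had 1023, 292 and 1205 CPM at 29 °C, against 212, 185 and 204 CPM at 21 °C (2.06 ± 0.457, edgeR adjusted p = 0.0450). *BnaA02g08820D* had 629, 114 and 691 CPM at 29 °C, against 97.6, 100 and 104 CPM at 21 °C (2.23 ± 0.571, not called, edgeR adjusted p = 0.0601).

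Among the heat-shock factors that switch such genes on, class A was present with the 2 copies of *HSFA4A*. Of these, 1 was called by edgeR, with and without Drakkar 29 °C replicate 2 (3.24% and 5.89% of all genes), and both by DESeq2 (4.72% of all genes). *BnaC03g62890D* had 3.43, 3.30 and 2.59 CPM at 29 °C, against 1.66, 1.19 and 1.19 CPM at 21 °C in Drakkar (1.21 ± 0.216, edgeR adjusted p = 0.0297). *BnaA01g09690D* had 2.81, 6.87 and 3.82 CPM at 29 °C, against 2.70, 1.44 and 1.49 CPM at 21 °C (1.26 ± 0.393, not called, edgeR adjusted p = 0.0916). Drakkar 29 °C replicate 2 was not the lowest of its group in either gene.

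Of the 8 genes of class B factors and of the co-activator MBF1C, 2 were called higher and 2 lower at 29 °C in Drakkar, beside 2.48% and 0.757% of all genes. DESeq2 called 4 higher and 4 lower, beside 4.72% of all genes in either direction. Without Drakkar 29 °C replicate 2, edgeR called 3 higher and 3 lower, beside 5.89% of all genes in either direction. The MBF1C copy *BnaC07g07150D* had 131, 43.3 and 98.5 CPM at 29 °C, against 28.7, 15.0 and 32.7 CPM at 21 °C (1.83 ± 0.429, not called by edgeR, adjusted p = 0.0503). The *HSF4* copy *BnaC01g01790D* had 21.8, 24.99 and 27.5 CPM at 29 °C, against 13.1, 4.37 and 10.4 CPM at 21 °C (1.42 ± 0.351, not called by edgeR, adjusted p = 0.0563). The 4 copies of *HSFB2B* (AT4G11660), summed and named after their values were seen, were lower in Drakkar at 29 °C, at 12.03, 12.6 and 3.68 CPM, against 31.6, 30.6 and 34.4 CPM at 21 °C. In these, Drakkar 29 °C replicate 2 lay beside replicate 1 and was not the lowest of its group, unlike in the HSP17.6II copies. In Duplo the sums were 13.1, 13.4 and 12.2 CPM at 29 °C, against 15.85, 35.3 and 10.7 CPM at 21 °C, so replicate 2 was the highest at 21 °C, as in the copies.

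**Figure D5:**
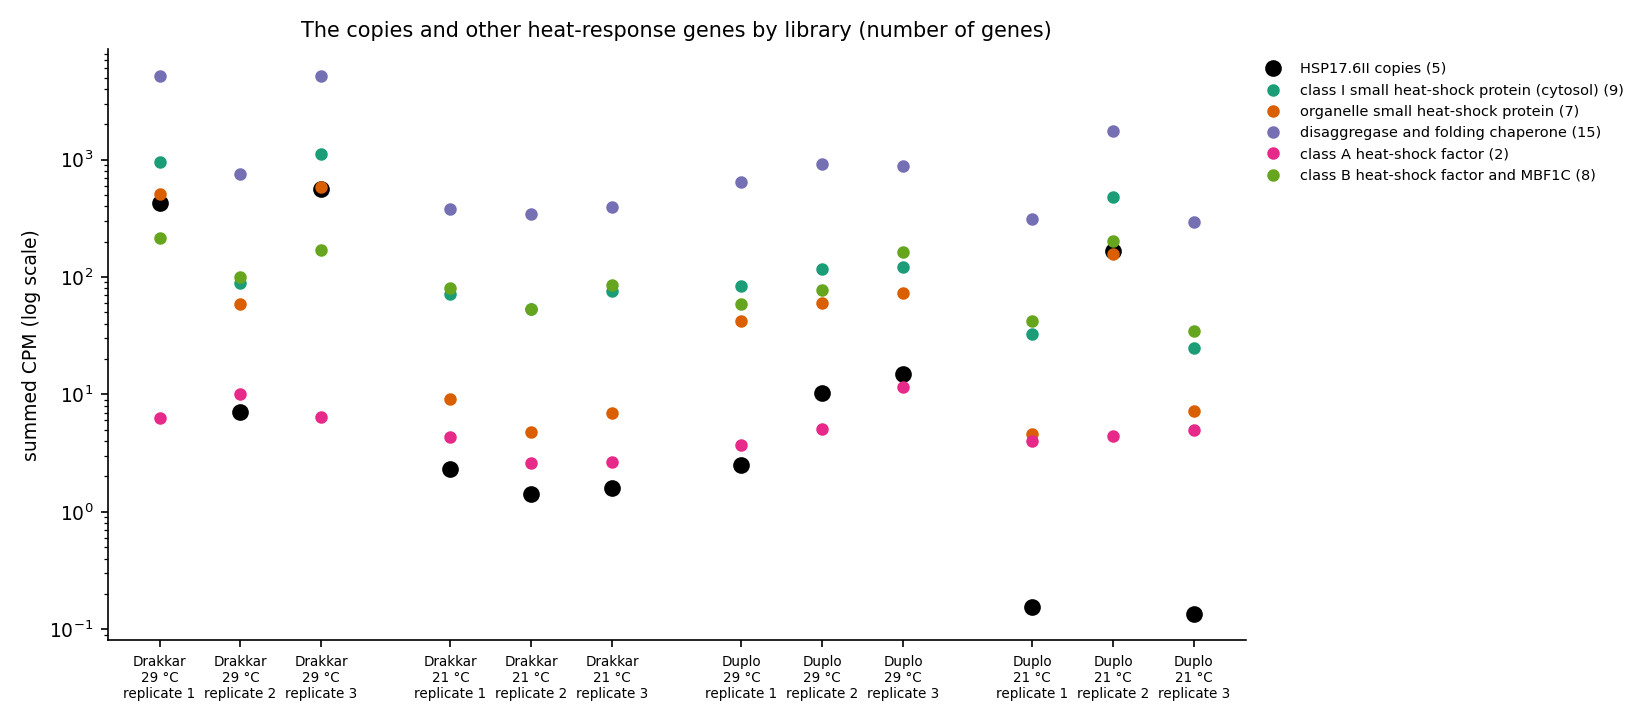
Summed CPM (log scale) of the 5 HSP17.6II copies and of 5 groups of other heat-response genes in each library, for Drakkar at 29 °C and 21 °C and Duplo at 29 °C and 21 °C. The copies range from 0.136 CPM in Duplo 21 °C replicate 3 to 563 CPM in Drakkar 29 °C replicate 3, and Duplo 21 °C replicate 2 stands above its group in each chaperone and small heat-shock protein group.

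In Duplo, 0 of the 37 other heat-response genes tested were called by edgeR in either direction, beside 0.00194% of all genes, 0 had an unadjusted p under 0.05, and the median log2 fold change was -0.33. DESeq2 called 0 of them too, and 929 of all 51673 genes. Of these 51673 genes, 10272 had an unadjusted p under 0.05 by edgeR. Without Duplo 21 °C replicate 2, the median was 1.76, 34 of 37 values were positive, 28 had an unadjusted p under 0.05 and none was called by edgeR, while DESeq2 called 22, all higher at 29 °C, beside 2.02% of all genes. By edgeR, 8514 of all 52915 genes had an unadjusted p under 0.05 there. The DESeq2 fit without that library was chosen after seeing the data. Leaving out a library high in these genes raises their fitted change, so these values add no support. Of the 41 genes, 38 were higher in Duplo 21 °C replicate 2 than in both other libraries of its group, as were 31.1% of all genes tested in Duplo. In Drakkar, 32 of the 41 were lower in 29 °C replicate 2 than in both other libraries of its group, as were 41.6% of all genes tested in Drakkar.

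Both libraries were also set against genes read in 1 variety only. Duplo 21 °C replicate 2 had 12 reads on 98 genes that were read only in Drakkar otherwise, and Drakkar 29 °C replicate 2 had 6 reads on 73 genes read only in Duplo, which is 0.0265% and 0.0299% of the level in the other variety. Other libraries had 0.0236% to 0.182%. Why these 2 libraries stood apart was not tested.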

How the data were processed

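RNA-seq read counts per gene of the 12 root-tip libraries were used as deposited: the authors aligned reads with HISAT2 to the rapeseed reference genome and deposited whole-number counts, and the counting program and its treatment of multi-mapping reads are not given in the sources used here. A blank row (0 to 2 counts) was left out. Fold changes and p-values from the authors' DESeq2 tables were not used. The study's lists of responding genes, which include its DESeq2 results, gave the gene names, loci and heat-response lists. Groups came from the labels.

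Genes were filtered with filterByExpr, scaled by TMM and tested with edgeR 4.0.16 (R 4.3.3, quasi-likelihood, Benjamini-Hochberg over all genes), with 1 fit per variety for temperature and 1 fit of 12 libraries for varieties and the interaction. DESeq2 1.42.0 was the alternative tool. Scripts were tested on simulated data. Folds against groups with at most 3 counts per library are lower bounds at that floor.

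The members and lists were chosen with earlier results of these data known. Named were the 5 copies, the 5 genes most like them, the 2 genes with the highest mean CPM of each heat-response role, and neighbours called in any comparison. Gene names came from the study's tables. Of the identifiers, 3347 matched the RefSeq table of another assembly (Da-Ae), and 0 of the copies did. Replicates differed by more than sampling noise, with chi-square per degree of freedom of 7.77 to 58.9. Duplo 29 °C replicate 3 correlated with its replicates at 0.935 and 0.942, the lowest of all pairs.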

Additional observations from a re-analysis of the deposited data

How the results depend on the processing

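The number of copies called in Drakkar between 29 °C and 21 °C (3 by edgeR) was 5 without a filter on low counts, 1 with at least 10 counts in every library, which left the A03 copy alone to test (1291 of all genes called), 1 in 1 fit of all 12 libraries and 5 with DESeq2 without 29 °C replicate 2 (chosen after seeing the data), and lay between 0 and 5 when 1 library was left out. DESeq2 called 3 copies for the difference of the responses, 4 between the varieties at 29 °C and 1 at 21 °C, against 0, 1 and 0 by edgeR. At 29 °C the count lay between 0 and 5 when 1 library was left out, and was 5 without both libraries that stood apart (chosen after seeing the data). Requiring 10 counts in every library left no copy to test outside Drakkar. Calls of the C03 and C09 copies within Drakkar, or for the difference of the responses, stand against Drakkar control libraries with 0 to 3 reads and add no support. Those of the C02 copy stand against 2 to 7 reads there and add none either. Between the varieties at 29 °C, calls of the C03 and C09 copies stand against Duplo libraries with 1 to 13 reads.

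In Duplo, leaving out 1 library gave log2 fold changes of -2.81 to 6.68 (A03 copy), -4.16 to 3.94 (A10), -4.76 to 5.29 (C02) and -2.76 to 6.21 (C03), -2.30 to 1.498 for *BnaA04g28570D*, -0.35 to 0.35 for *BnaA05g26970D* and -1.49 to 3.11 for *BnaAnng17140D*, the positive ends without 21 °C replicate 2. DESeq2 without that library (chosen after seeing the data) gave 6.74, 4.03, 5.61 and 5.70 for the same copies, with 1 called, and 1.49, 0.34 and 3.13 for the 3 genes. Between the varieties at 21 °C the ranges were -5.31 to 4.17 (A03), -5.36 to 2.21 (A10), -6.86 to 2.53 (C02), -5.11 to 3.93 (C03) and -6.72 to 3.68 (C09), -3.02 to 0.76 for *BnaA04g28570D*, -0.50 to 0.18 for *BnaA05g26970D* and -5.18 to 0.16 for *BnaA01g16730D*. Without both libraries that stood apart, the values at 21 °C were 4.17, 2.21, 2.53, 3.93, 3.68, 0.76, 0.18 and 0.17 in that order. The positive values of the C02 and C03 copies in Duplo, and of the C copies at 21 °C, stand against libraries with 0 or 1 reads and are fitted values, not measured folds. Those of the A03 and A10 copies stand against 1 library with 4 reads and 1 with 0 reads and are not measured folds either.

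The replicate numbers were not taken as pairs. To check this, the deviations of the genes in each library from their group means were correlated, not the levels themselves. Deviations of same-numbered libraries of the 2 temperatures correlated at -0.074, 0.063 and 0.130 in Drakkar and at 0.027, -0.203 and -0.041 in Duplo. Between the varieties, such deviations correlated at 0.229, 0.089 and 0.410 at 29 °C and at 0.162, 0.058 and -0.283 at 21 °C. With the replicate block, 1 copy was called in Drakkar (545 of all genes, against 1707 without it), at log2 fold changes of 6.02 (A03), 7.28 (A10) and 8.40 (C02). In Duplo the block gave 2.22 (A03), -0.0051 (A10), -0.33 (C02) and -0.24 (C03), and 0.0043 and 0.84 for *BnaA04g28570D* and *BnaAnng17140D*, with no copy called. Low counts limit the C03 and C09 copies, which had 0 to 3 reads in every library at 21 °C but Duplo replicate 2.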
